A study of Mus musculus with 4 samples.

Results

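Apoe, Apod, Clu, Ptgds, Cst3, Rarres2, Mgp and Cd9, which glia, vessels and meninges express, were followed in single-nucleus RNA libraries of mouse hypothalamus. They are 8 of the 33696 genes in the deposited feature lists and were found there by symbol. They were chosen by earlier values of these libraries, namely the cell classes in which they were highest, their level in neurons of each library and the part of that level that free RNA could give. Source levels and neuron levels are therefore described here without a test. Only Apoe, Apod, Clu and Ptgds carry lipids or hydrophobic ligands by their known roles, and Cd9 is a membrane protein, so the group is mixed in function.

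The libraries came from 2 groups of conventionally colonised (SPF) wild-type C57BL/6J mice. The ImP group (libraries ImP 3 and ImP 4) received 350 µg of imidazole propionate per day, and the vehicle group (libraries vehicle 1 and vehicle 2) received water with 1% DMSO. Imidazole propionate is made from histidine by gut bacteria. An osmotic minipump delivered either one intraperitoneally for 2 weeks. The hypothalamus was then snap-frozen after perfusion, and its nuclei were sequenced. The labels give neither the sex or age of the mice nor how many animals entered a library, so each p-value below measures the spread between libraries, which may be technical.

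Apolipoprotein E carries cholesterol and phospholipids between brain cells and is made mainly by astrocytes. Clusterin is a secreted chaperone that also travels on lipoproteins, and apolipoprotein D is a lipocalin made by oligodendrocytes and by fibroblasts of the meninges and vessels. Ptgds encodes the lipocalin-type prostaglandin D synthase, which makes prostaglandin D2 in leptomeninges and oligodendrocytes and is a major protein of cerebrospinal fluid. Cystatin C (Cst3) is a secreted inhibitor of cysteine cathepsins, chemerin (Rarres2) is a chemoattractant and adipokine, matrix Gla protein (Mgp) is a vitamin K-dependent inhibitor of vascular calcification, and Cd9 is a tetraspanin of myelinating and progenitor cells.

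The 250 bases upstream of the annotated start are shown for 4 members whose leading classes, described below, differ in part. Ptgds and Apod share sources in oligodendrocytes and fibroblasts. Cst3 was highest in microglia, and Cd9 was nearly level in oligodendrocyte precursors, tanycytes and oligodendrocytes. All 8 genes were chosen by their neuron levels, so no shared regulation is read from their being higher together in ImP neurons. The sequences are RefSeq's for the build GRCm38.p6, read 5′ to 3′ on the strand of the gene. Capitals mark GGGCGG, the core of a GC box.
Ptgds, chr2:25469750-25469999, minus strand: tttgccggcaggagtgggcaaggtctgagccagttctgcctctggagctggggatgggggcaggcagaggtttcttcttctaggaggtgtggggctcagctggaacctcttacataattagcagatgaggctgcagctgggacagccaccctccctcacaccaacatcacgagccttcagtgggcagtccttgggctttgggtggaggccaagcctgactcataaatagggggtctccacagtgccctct
Apod, chr16:31314809-31315058, minus strand: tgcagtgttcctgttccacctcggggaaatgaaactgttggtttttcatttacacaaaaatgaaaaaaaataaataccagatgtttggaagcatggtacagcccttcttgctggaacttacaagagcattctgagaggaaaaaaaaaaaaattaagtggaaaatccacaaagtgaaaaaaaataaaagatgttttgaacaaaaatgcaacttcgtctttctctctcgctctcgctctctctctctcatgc
Cst3, chr2:148875513-148875762, minus strand: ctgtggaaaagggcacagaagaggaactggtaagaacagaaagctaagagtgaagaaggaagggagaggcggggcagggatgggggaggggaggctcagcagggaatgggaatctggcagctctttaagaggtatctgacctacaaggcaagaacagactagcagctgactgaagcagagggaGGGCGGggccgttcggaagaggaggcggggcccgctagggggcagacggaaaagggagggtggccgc
Cd9, chr6:125494761-125495010, minus strand: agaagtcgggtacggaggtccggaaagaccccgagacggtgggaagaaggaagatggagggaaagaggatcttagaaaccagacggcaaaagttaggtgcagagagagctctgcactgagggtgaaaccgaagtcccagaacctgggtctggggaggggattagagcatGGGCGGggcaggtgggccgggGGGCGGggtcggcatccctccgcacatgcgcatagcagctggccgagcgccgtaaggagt
Only 5 of the 8 members were matched in the promoter table, the 4 above and Apoe. The Ptgds window held 58.4% G and C, and the Apod window 36.4%. Neither held the GC box core, the CCAAT box or the TATA box letters TATAAA on either strand. The Cst3 window (59.6% G and C) held 1 GGGCGG, 67 bases upstream of the start, and the Cd9 window (61.6%) held 2, at 81 and 60 bases. Of 32851 mouse windows of the same length, 32.7% held GGGCGG, 33.9% held the letters CCAAT and 12.4% the TATA box letters on either strand, and the median G and C content was 52.4%. No motif of these 3 was common to the 4 windows. These are descriptions of letters, not of binding.

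Nuclei were sorted into classes by the number of marker genes with at least 1 unique molecular identifier (UMI, 1 counted RNA molecule). The 4 files held 15471 and 16348 barcodes for ImP 3 and ImP 4, against 11255 and 13723 for vehicle 1 and vehicle 2, with 48060194 to 51945297 UMIs per library. After filters, neuron-like nuclei numbered 9722 and 10132 in the ImP libraries, against 7494 and 8819 in the vehicle libraries. Their median depth was 3556 and 3488 UMIs in ImP neurons, against 4632.5 and 3928 UMIs in vehicle neurons. Of 51 markers kept out of the gates, 40 were highest in their own class, including 7 of 7 for oligodendrocytes and 9 of 9 for microglia, but 4 of 9 for astrocytes and 1 of 3 for tanycytes, whose gate is the weakest. Between 39 and 76 barcodes were shared by each pair of libraries. ImP 4 stood apart in 1 respect: it held 362 pituitary-like nuclei, against 3 in ImP 3, 6 in vehicle 1 and 3 in vehicle 2. Pituitary markers summed to 33.2 and 1924 CPM (UMIs per 1000000 UMIs of the class) in ImP neurons, against 21.4 and 8.81 CPM in vehicle neurons.

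Classes were ranked by mean CPM among those with at least 20 nuclei in every library. Apoe was highest in tanycyte-like nuclei, the ependymoglia that line the floor of the third ventricle, at 2929 and 2733 CPM in the ImP libraries, against 4500 and 3552 CPM in the vehicle libraries. The lower pair was the ImP pair and the groups did not overlap. Astrocyte-like nuclei came next, at 2643 and 2793 CPM with ImP, against 2069 and 2633 CPM with vehicle. The means were 3429 ± 795 CPM in tanycyte-like and 2534 ± 319 CPM in astrocyte-like nuclei (SD, n = 4 each), and their ranges over the libraries overlapped. The small ependymal-like class, with 15 to 24 nuclei per library, averaged 2877 ± 901 CPM and was not ranked. Astrocyte markers did not count against nuclei of the tanycyte or ependymal class. Clu was highest in astrocyte-like nuclei, at 253 and 251 CPM with ImP, against 227 and 196 CPM with vehicle. Its next ranked class, microglia-like nuclei, averaged 161 ± 46.5 CPM against 232 ± 26.5 CPM in astrocyte-like nuclei (SD, n = 4 each), with no overlap between the ranges. Unranked small classes averaged more Clu than microglia-like nuclei did, at 226 CPM in endothelial-, 223 CPM in ependymal- and 219 CPM in fibroblast-like nuclei.

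The lipocalins Ptgds and Apod shared their leading classes. Of the ranked classes, Ptgds was highest in oligodendrocyte-like nuclei, at 1246 and 2603 CPM with ImP, against 1137 and 1414 CPM with vehicle. ImP 4 alone lay far above the rest, and ImP 3 lay between the vehicle libraries. Apod was likewise highest there, at 430 and 412 CPM with ImP, against 401 and 386 CPM with vehicle, all 4 libraries within a narrow range. Fibroblast-like nuclei, which numbered 18 and 26 in the ImP libraries, against 3 and 8 in the vehicle libraries, held far more of both. There Ptgds reached 7834 and 15346 CPM with ImP, against 5138 and 3098 CPM with vehicle. Apod reached 1333 and 1259 CPM with ImP, against 2321 and 2364 CPM with vehicle, the opposite order. With 3 nuclei in vehicle 1, these fibroblast levels carry counts of 31 Ptgds and 14 Apod UMIs in that library and were not tested.

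Cst3 was highest in microglia-like nuclei, at 2315 and 2562 CPM with ImP, against 2107 and 1778 CPM with vehicle. Tanycyte-like nuclei followed at a mean of 1768 ± 454 CPM, against a microglial mean of 2191 ± 332 CPM (SD, n = 4 each), and these ranges overlapped. Cd9 had 3 classes at nearly the same mean: 247 ± 16.7 CPM in oligodendrocyte precursor-like nuclei, 245 ± 53.9 CPM in tanycyte-like nuclei and 238 ± 42.5 CPM in oligodendrocyte-like nuclei (SD, n = 4 each). Rarres2 was sparse. Its highest mean level over all gated classes was in the 15 and 19 ependymal-like nuclei of the ImP libraries, at 153 and 66.0 CPM, against 107 and 151 CPM in the 24 and 20 of the vehicle libraries, from 2 to 5 UMIs each. In CPM, Mgp averaged most in endothelial-, fibroblast- and mural-like nuclei, all from few UMIs, while the far more numerous neurons held 243 of 491 and 261 of 455 Mgp UMIs of kept nuclei with ImP, against 16 of 25 and 21 of 37 with vehicle. Endothelial-like nuclei held 45 and 1 Mgp UMIs with ImP, against 0 and 3 with vehicle. Mural-like nuclei held 9 and 3 Mgp UMIs with ImP and none with vehicle, from 12 and 21 nuclei with ImP, against 11 and 8 nuclei with vehicle.

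**Figure D1:**
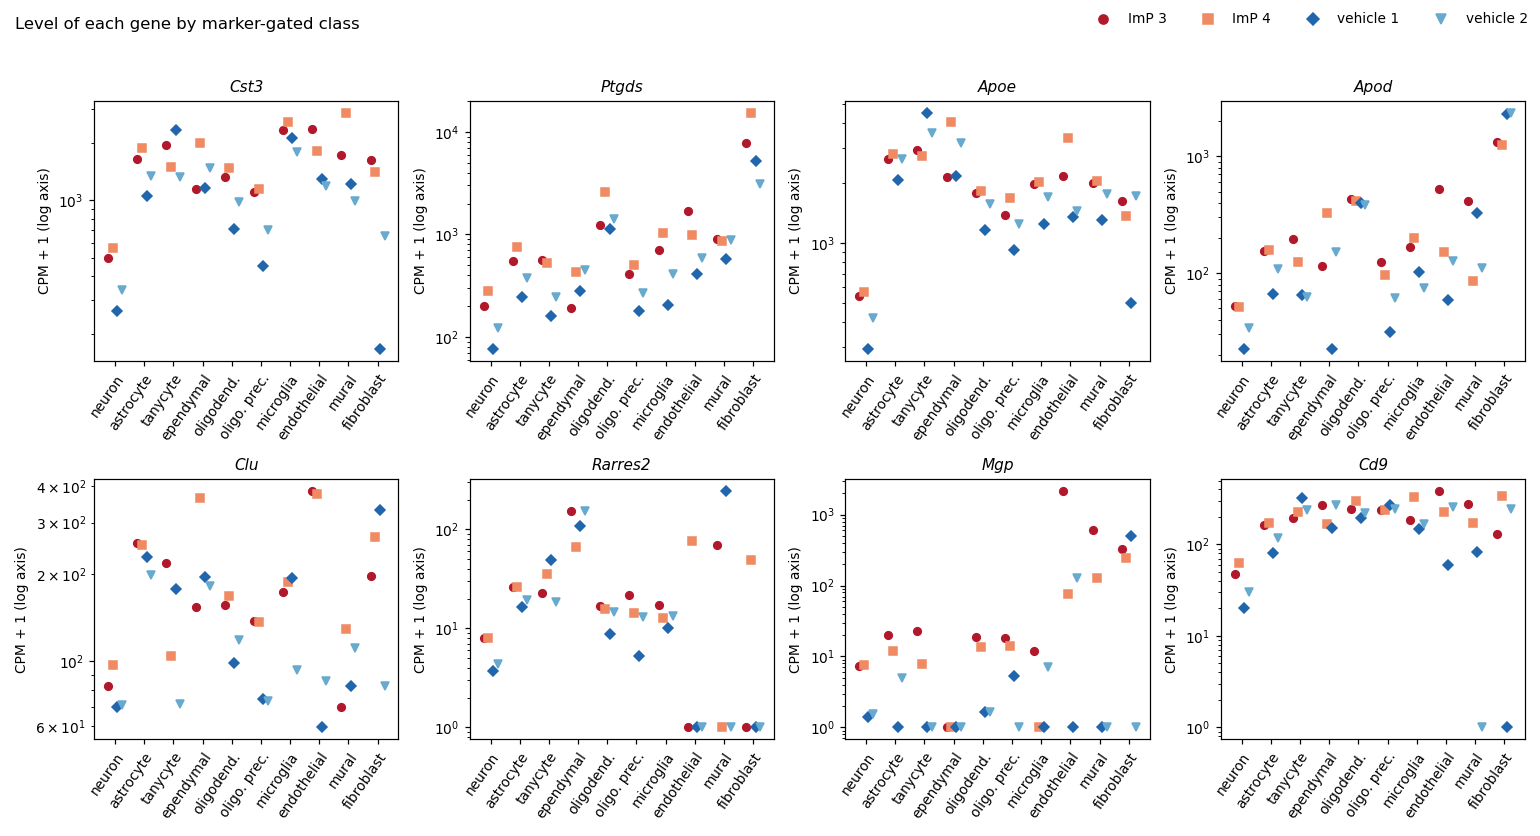
Level of each of the 8 genes in the 6 ranked classes and in ependymal-, endothelial-, mural- and fibroblast-like nuclei. Values are CPM + 1 of the UMIs summed per library and class, on a log axis. Each point is 1 library, ImP left of vehicle. Neuron-like nuclei hold the lowest mean CPM of the 6 ranked classes for each gene. Ptgds and Apod are highest in fibroblast-like nuclei and, of the ranked classes, in oligodendrocyte-like nuclei.

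Across the 6 ranked classes, neurons had the lowest mean CPM for all 8 genes. This held for 8 of 8 without vehicle 1 or without ImP 4, and for 7 of 8 without vehicle 2 or without ImP 3. CPM divides by the UMIs of the class, and neurons were deeper than glial nuclei. A median of 1369.5 and 1365 UMIs was counted per astrocyte-like nucleus with ImP, against 1572 and 1324.5 UMIs with vehicle. Counted per nucleus instead, Clu was about as high in neurons, at 0.320 and 0.373 UMIs with ImP, against 0.360 and 0.309 UMIs with vehicle, as in astrocyte-like nuclei, at 0.360 and 0.366 UMIs with ImP, against 0.378 and 0.281 UMIs with vehicle.

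By a correlation of log2(CPM + 1) of the library means over the 6 classes, Mal, a myelin proteolipid, was the gene most like Ptgds (Pearson r = 0.99), followed by Apod (r = 0.99). Apod in turn resembled Ptma (r = 0.99) and Ptgds. The pattern of Apoe was nearest to that of Ctso, which encodes a cathepsin (r = 1.00), and Igf1r (r = 0.99), and that of Cst3 to Nfe2l2 and Ufl1 (r = 0.99 each). Clu was nearest to Nherf1 and Trp53inp1 (r = 0.98 each), Rarres2 to Tspan31 and Gm9968 (r = 0.99 each), and Cd9 to Mfsd8 (r = 0.99) and Cfdp1 (r = 0.98). Mgp stayed under 10 CPM in each of the 6 classes and was not ranked. These likenesses rest on 6 points that come from the same 4 libraries, out of 14076 genes compared, and are a description.

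All 8 genes were at a higher CPM in both ImP libraries than in both vehicle libraries in neuron-like nuclei. Over the 20362 genes tested there, 17.8% lay higher in both ImP libraries and 20.3% lower. Because neuron levels chose the members, nothing is read from that count. Among the lipid carriers, Apoe stood at 542 and 567 CPM in ImP neurons, against 292 and 420 CPM in vehicle neurons. Apod stood at 51.7 and 50.4 CPM in ImP neurons, against 21.4 and 32.8 CPM in vehicle neurons. In both genes the ImP libraries lay close together and the vehicle libraries further apart. Clu had the smallest difference of the 8, at 81.5 and 95.9 CPM in ImP neurons, against 68.9 and 69.7 CPM in vehicle neurons.

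Ptgds stood at 198 and 277.5 CPM in ImP neurons, against 75.0 and 122 CPM in vehicle neurons, with no overlap but a wide spread inside each group. The same order was seen for the protease inhibitor Cst3, at 500.4 and 564 CPM in ImP neurons, against 264 and 340 CPM in vehicle neurons. Cd9 had 47.0 and 61.0 CPM in ImP neurons, against 19.0 and 28.9 CPM in vehicle neurons. For Ptgds, Cst3 and Cd9 alike, ImP 4 was the highest of the 4 libraries and vehicle 1 the lowest.

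Rarres2 stood at 6.93 CPM in each ImP library, against 2.73 and 3.40 CPM in vehicle neurons. Mgp showed the widest difference, with 243 and 261 UMIs (6.35 and 6.63 CPM) in ImP neurons, against 16 and 21 UMIs (0.408 and 0.536 CPM) in vehicle neurons. Its fold thus rests on a very low vehicle level. The ratio of the group means was 13.7 for Mgp, 2.42 for Ptgds, 2.26 for Rarres2 and for Cd9, 1.88 for Apod, 1.76 for Cst3, 1.56 for Apoe and 1.28 for Clu. Of the 20362 genes, edgeR's quasi-likelihood test with Benjamini-Hochberg adjustment called 1 (0.00491%), and this was Mgp itself. Since the same contrast chose it, that call is not evidence. The median log2 ratio of the 8 members was 1.06 without ImP 3 and 0.96 without ImP 4. It was 0.77 without vehicle 1 and 1.33 without vehicle 2. Each of these fits leaves 1 library in a group and uses the same contrast, so they are not evidence either.

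**Figure D2:**
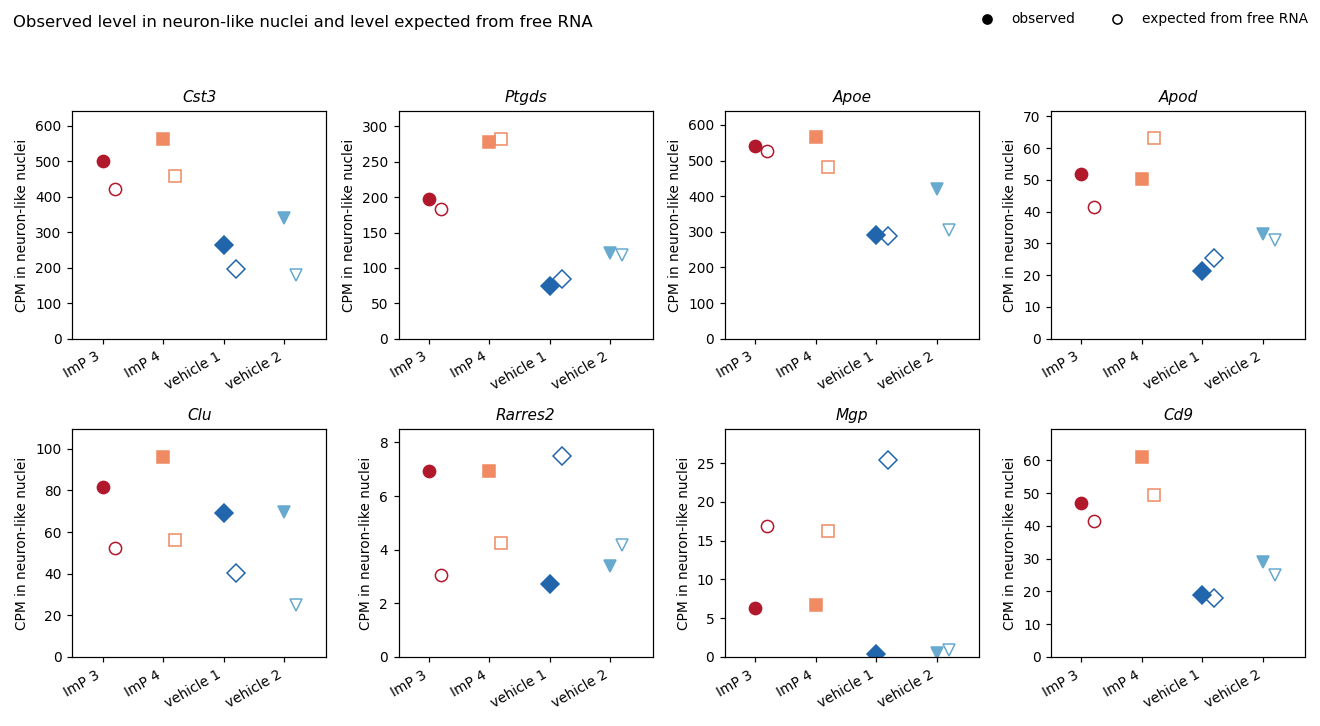
Level of each gene in neuron-like nuclei of each library (filled points, CPM) and the level expected from free RNA (open points, CPM), ImP left of vehicle. Each observed ImP point lies above both observed vehicle points, and for Ptgds the expected points fall almost on the observed ones.

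CPM and UMIs per nucleus treat depth differently, and ImP neurons were shallower than vehicle neurons. In UMIs per nucleus, the ratio of the group means was 11.2 for Mgp, 1.99 for Ptgds, 1.85 for Rarres2 and for Cd9, 1.55 for Apod, 1.44 for Cst3, 1.28 for Apoe and 1.04 for Clu. Both ImP libraries stayed above both vehicle libraries for 7 members, and the Clu libraries overlapped. This was not counted over all genes, and neuron levels chose the members, so nothing is read from it. The labels' library names carry a number, 111 for ImP 3 and vehicle 1 and 113 for ImP 4 and vehicle 2, whose meaning is not given. Within 111 the CPM ratio ran from 1.18 to 15.6 over the 8 members with a median of 2.45, and within 113 from 1.35 to 12.4 with a median of 1.85. Without ImP 4, the library with pituitary-like nuclei, the median log2 ratio of the 8 members was 0.96, against 1.06 with all libraries and −0.00 over all genes tested.

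To compare the groups at equal depth, neurons were binned by their own UMIs, at under 2000, 2000 to 4000, 4000 to 8000 and over 8000. Between the lowest and the highest bin the depth was 6.40-fold to 6.94-fold greater, depending on the library. Cst3 per nucleus was 1.52-fold and 1.48-fold higher in the deepest bin of the ImP libraries, against 1.65-fold and 1.68-fold in the vehicle libraries. For Ptgds the same ratio was 1.56 and 1.44 with ImP, against 1.70 and 1.72 with vehicle. Clu differed by 2.26-fold to 2.95-fold over the libraries. In all 4 libraries the counts of these 3 genes thus differed far less between bins than the depth did. The sparse Rarres2 was an exception in vehicle 1, where it was 7.86-fold higher in the deepest bin, against a 6.94-fold greater depth. That fold rests on 1 Rarres2 UMI in the 460 nuclei of the lowest bin, against 18 UMIs in the 1053 of the deepest, so little is read from it.

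At equal depth the group order was the same for 7 members but not for Clu. In the 2000 to 4000 bin, Ptgds was counted 0.753 and 1.04 times per ImP neuron, against 0.377 and 0.504 times per vehicle neuron. Above 8000 UMIs it was counted 0.938 and 1.32 times per ImP neuron, against 0.466 and 0.632 times per vehicle neuron. Both ImP libraries were above both vehicle libraries in 4 of 4 bins for 7 members and in 2 of 4 bins for Clu. They were also above in 4 of 4 bins for a summed set of 33 other genes of glia, vessels and fibroblasts that no gate used, called the calibration genes below. Neuron levels chose the 8 members, and no share over all genes was computed for the bins. Nothing is therefore read from the member counts.

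**Figure D3:**
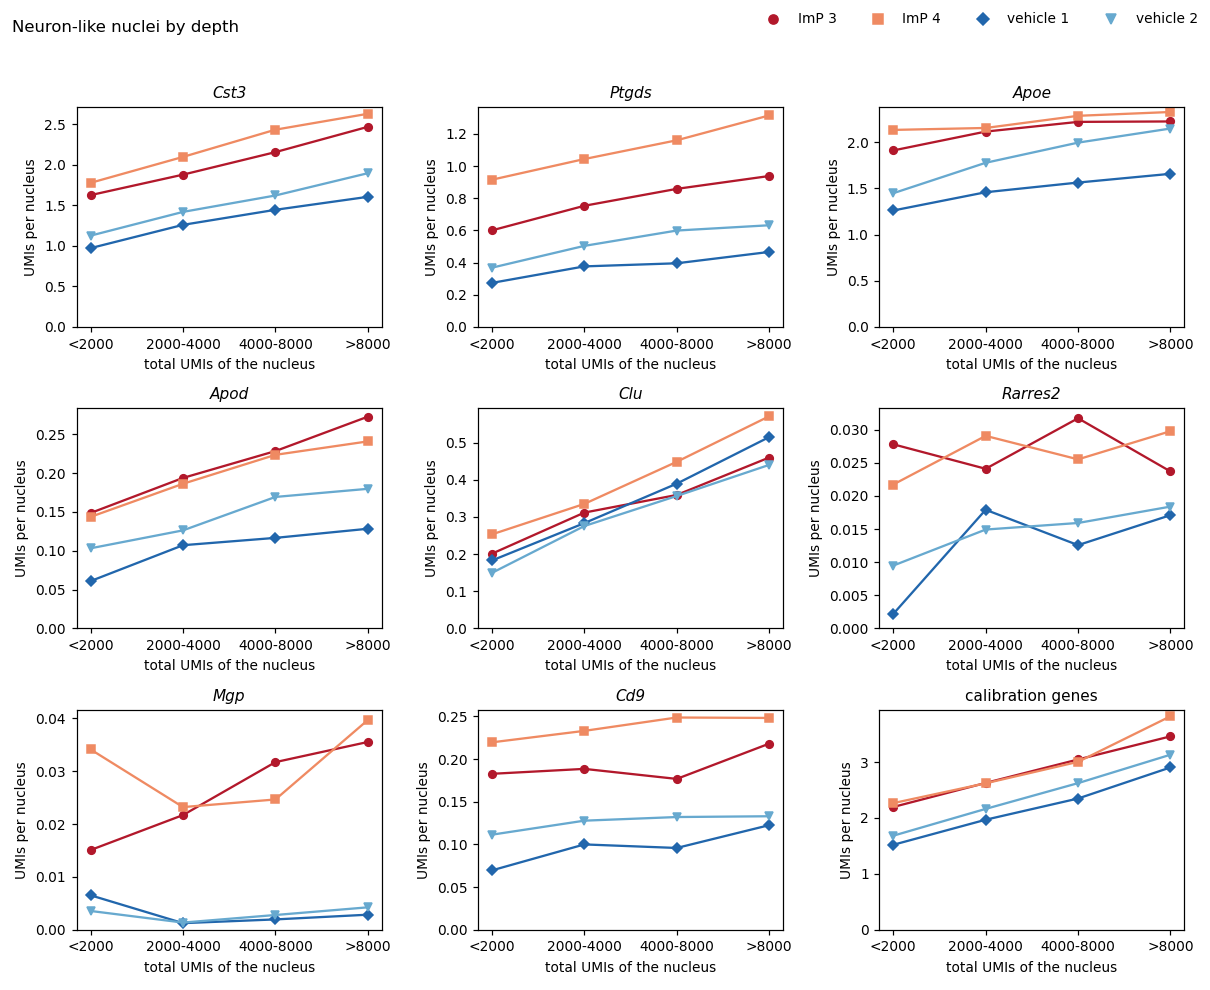
UMIs of each gene per neuron-like nucleus in 4 bins of the nucleus's own depth (UMIs per nucleus), with a line for each library. The ImP lines lie above the vehicle lines in each bin for 7 genes, and the Clu lines cross. Cst3, Ptgds and Clu lines climb far less steeply than depth, whereas Rarres2 in vehicle 1 climbs 7.86-fold from 1 UMI in the lowest bin.

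Per nucleus, Ptgds stood at much the same count in neurons, astrocyte-like and oligodendrocyte precursor-like nuclei. It was at 0.779 and 1.08 UMIs in ImP neurons, against 0.392 and 0.540 UMIs in vehicle neurons. Astrocyte-like nuclei had 0.789 and 1.11 UMIs with ImP, against 0.410 and 0.534 UMIs with vehicle, and oligodendrocyte precursor-like nuclei 0.744 and 0.950 UMIs with ImP, against 0.390 and 0.524 UMIs with vehicle. Within a library, the count in these 2 glial classes was 0.881 to 1.05 times that in neurons. Other classes strayed further from their neurons, microglia-like nuclei between 0.684 and 1.12 times and tanycyte-like nuclei between 0.823 and 1.45 times, and the few ependymal-like nuclei between 0.428 and 1.39 times. Oligodendrocyte-like nuclei stood apart at 1.71 and 3.63 UMIs with ImP, against 1.77 and 1.99 UMIs with vehicle, as did fibroblast-like nuclei at 13.4 and 24.4 UMIs with ImP, against 10.3 and 4.75 UMIs with vehicle.

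Apod stood at 0.203 and 0.196 UMIs per ImP neuron, against 0.112 and 0.146 per vehicle neuron. In astrocyte-like nuclei Apod was at 0.220 and 0.229 UMIs with ImP, against 0.108 and 0.155 UMIs with vehicle. Precursor-like nuclei held 0.225 and 0.182 Apod UMIs with ImP, against 0.0667 and 0.119 UMIs with vehicle. Oligodendrocyte-like nuclei, its leading ranked class, held 0.591 and 0.575 UMIs with ImP, against 0.627 and 0.543 UMIs with vehicle. There the groups overlapped, though in CPM they did not. The few fibroblast-like nuclei held 2.28 and 2.00 Apod UMIs with ImP, against 4.67 and 3.625 UMIs with vehicle. Per nucleus, Apod was thus higher with ImP in neurons, astrocyte-like and precursor-like nuclei. It overlapped in oligodendrocyte-like nuclei and was lower with ImP in fibroblast-like nuclei.

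**Figure D4:**
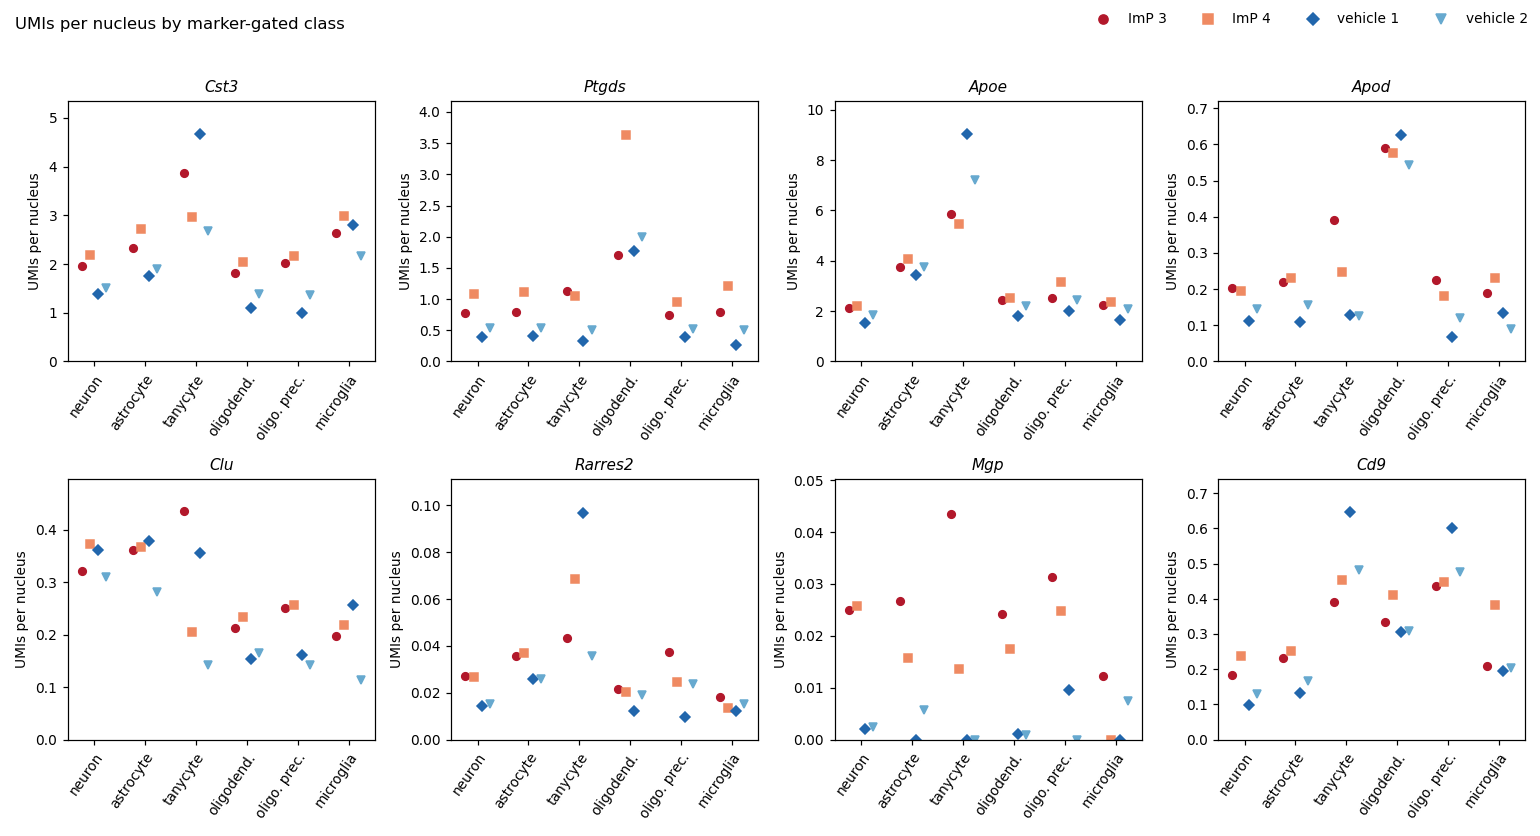
UMIs of each gene per nucleus in 6 marker-gated classes; each point is 1 library, ImP left of vehicle. For Ptgds, neurons, astrocyte-like and precursor-like nuclei sit at nearly one level within a library; for Apod the precursor-like nuclei of vehicle 1 sit lower, at 0.0667 UMIs, against 0.112 in neurons. Oligodendrocyte-like nuclei sit above for both genes.

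The members were also even across kinds of neurons. Neurons with a UMI of Slc32a1, Gad1 or Gad2 and none of Slc17a6, Slc17a7 or Slc17a8 were taken as GABAergic, and the reverse as glutamatergic. The GABAergic over glutamatergic ratio of UMIs per nucleus lay between 0.90 and 1.12 in each library for Cst3, Ptgds, Apoe, Apod, Clu and Cd9. It was 0.72 to 0.97 for Rarres2 and 0.79 to 7.43 for Mgp, whose vehicle counts are few.

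As shares, 52.1% and 64.0% of ImP neurons had a Ptgds UMI, against 31.5% and 38.9% of vehicle neurons. Microglia-like nuclei, which are not a known source of Ptgds, had 55.8% and 67.3% with ImP, against 24.4% and 39.1% with vehicle, although their median depth was 1103 and 1101 UMIs with ImP, against 1220 and 1147 UMIs with vehicle. Exact Clopper-Pearson intervals (95%, counting error only) for neurons ran from 51.1% to 53.1% and from 63.1% to 65.0% with ImP, against 30.4% to 32.5% and 37.9% to 39.9% with vehicle. The share in neurons was below that in the shallower microglia-like nuclei in both ImP libraries. It differed from theirs by less than its interval in vehicle 2 and was above theirs in vehicle 1. The microglial shares rest on few nuclei, 91 of 163 and 99 of 147 with ImP, against 20 of 82 and 52 of 133 with vehicle. No interval was computed for them, so this order is not read as a difference. No expression by neurons is read from these shares. After each neuron was thinned to 1500 UMIs, Ptgds was found in 27.4% and 35.0% of ImP neurons, against 12.4% and 18.2% of vehicle neurons. Mgp was found in 2.19% and 2.13% of ImP neurons, against 0.214% and 0.238% of vehicle neurons. In oligodendrocyte-like nuclei, with a median of 1271.5 and 1297 UMIs with ImP, against 1416 and 1275.5 UMIs with vehicle, Mgp was found in 1.77% and 1.47% with ImP, against 0.100% and 0.0906% with vehicle. Shares of ImP neurons exceeded both vehicle libraries for 7 members unthinned and for 8 thinned. Neuron levels chose the members and no such share was computed over all genes, so nothing is read from these counts. Thinning left out 497 and 489 shallower ImP neurons, against 195 and 390 vehicle neurons.

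The level that free RNA would give was estimated from the deposited barcodes with fewer than 500 genes, 308 and 305 in the ImP libraries, against 136 and 222 in the vehicle libraries. Their summed profile was scaled so that the calibration genes matched their summed level in neurons. That level was 700.5 and 709 CPM in ImP neurons, against 431 and 536 CPM in vehicle neurons, or 13.5% and 14.6% of the low-gene profile with ImP, against 11.9% and 10.8% with vehicle. So the calibration genes, which are no members, were also higher in ImP neurons, by a ratio of 1.46 in all, 1.45 for those of oligodendrocytes, 1.45 for those of astrocytes, 2.01 for those of microglia and 1.11 for those of vessels and fibroblasts.

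For Ptgds, 92.6% and 102% of the level in ImP neurons was expected from free RNA, against 112% and 96.8% in vehicle neurons. Cd9 came to 88.2% and 80.9% with ImP, against 94.6% and 86.7% with vehicle, and Apoe to 97.2% and 85.2% with ImP, against 99.1% and 72.6% with vehicle. The estimate thus covered most or all of the neuron level of these 3 genes in each library. Apod came to 80.1% and 125% with ImP, against 119% and 94.2% with vehicle.

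For Cst3 and Clu, as for Cd9 and Apoe, the estimate lay below the neuron level in each of the 4 libraries. Cst3 came to 84.0% and 81.3% with ImP, against 75.0% and 53.0% with vehicle. Clu had the lowest median share of the 8, at 64.1% and 58.6% with ImP, against 58.6% and 36.0% with vehicle. Rarres2 ran from 44.3% to 274% over the libraries, since its profile held 4 or 5 UMIs, and Mgp from 156% to 6231%. The Mgp profile was uneven: 17 UMIs in vehicle 1 lay in 2 barcodes, while vehicle 2 held 1 UMI. For these 2 genes the estimate says little.

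Summed over the 8 genes, neurons held 1434 and 1629.5 CPM in the ImP libraries, against 743 and 1017 CPM in the vehicle libraries. The expected sum was 1285 and 1412 CPM with ImP, against 687 and 689 CPM with vehicle, which is 89.6% and 86.7% of the observed sum with ImP, against 92.5% and 67.8% with vehicle. The free-RNA profile itself differed between the groups: Cst3 was at 3124 and 3149 CPM in the low-gene barcodes with ImP, against 1666 and 1664 CPM with vehicle, and Ptgds at 1363 and 1937 CPM with ImP, against 707 and 1086 CPM with vehicle. These barcodes were called as cells by the authors' pipeline, so they may include poor nuclei beside empty droplets. Gate markers of other classes in neurons differed in direction. The gate let a neuron hold at most 2 markers of any other class, which limits these sums. Nuclei set aside for markers of several classes were 10.3% and 11.7% of kept nuclei with ImP, against 8.54% and 9.41% with vehicle. The 9 astrocyte markers summed to 143 and 144 CPM with ImP, against 89.9 and 107 CPM with vehicle, and the 10 oligodendrocyte markers to 101 and 108 CPM with ImP, against 67.3 and 82.1 CPM with vehicle. The 9 fibroblast markers summed to 15.2 and 14.7 CPM with ImP, against 8.91 and 9.78 CPM with vehicle. In these 3 lists both ImP libraries were above both vehicle libraries. The groups overlapped for the 10 endothelial markers, at 39.0 and 32.1 CPM with ImP, against 38.9 and 35.1 CPM with vehicle, and for the 10 microglial markers, at 120 and 116 CPM with ImP, against 116 and 135 CPM with vehicle. They also overlapped for the tanycyte, ependymal and oligodendrocyte precursor lists, and the 8 mural markers were lower with ImP, at 30.2 and 29.0 CPM, against 31.8 and 30.8 CPM with vehicle. No marker of these lists was at 0 in every library. More cells of a source class and more RNA per cell cannot be told apart in free RNA.

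In 5 non-neuronal classes the contrast of ImP with vehicle was tested by edgeR's quasi-likelihood test with Benjamini-Hochberg adjustment over all genes of the class. These nuclei share their libraries and their free RNA with the neurons, so their values give no independent support to the neuron values. The calls depended on the fit. With the library-name number as a block, 5 of 8 members and 294 of 11645 genes passed in astrocyte-like nuclei. In oligodendrocyte-like nuclei 5 of 8 members and 583 of 11402 genes passed, and in precursor-like nuclei 4 of 6 and 65 of 4903. In microglia-like nuclei 1 of 6 members and 78 of 4109 genes passed, and in tanycyte-like nuclei 1 of 6 and 14 of 1947. The block is 1 more term fitted to only 4 libraries, and what its number means is not given. In astrocyte-like nuclei no gene of 11645 passed (0%), and none of the 8 members, although 1154 genes (9.91%) and 5 members had an unadjusted p under 0.05. DESeq2 called 0 genes and the fit with the block 294. Without vehicle 2, 376 genes and 5 members passed, without ImP 3, 57 genes and 1 member, without vehicle 1, 9 genes and 0 members, and without ImP 4, 0 genes. All 8 members were higher in both ImP libraries there, where 21.4% of genes were. Mgp had the largest log2 ratio of the 8, at 2.90 ± 0.719 (SE, adjusted p = 0.269), from 27 and 15 UMIs with ImP, against 0 and 5 UMIs with vehicle. Ptgds had a log2 ratio of 1.09 ± 0.221 (SE, adjusted p = 0.269).

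Oligodendrocyte-like nuclei gave the same outcome, with 0 of 11402 genes passing (0%), 0 of 8 members, 1301 genes (11.4%) and 5 members at an unadjusted p under 0.05, 11 genes called by DESeq2 and 583 with the block. Without vehicle 2, 293 genes and 2 members passed, without vehicle 1, 7 genes and 1 member, and without either ImP library, 0 genes. Of the 8 members, 7 were higher in both ImP libraries, where 23.9% of genes were, and Ptgds was the exception. Mgp had a log2 ratio of 4.38 ± 0.636 (SE, adjusted p = 0.0901), from 30 and 19 UMIs with ImP, against 1 UMI in each vehicle library. Apod, for which this was the leading ranked class, had a log2 ratio of 0.08 ± 0.157 (SE, adjusted p = 0.885). For Ptgds the log2 ratio was 0.58 ± 0.261 (SE, adjusted p = 0.431), and it was −0.068 without ImP 4.

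Of the oligodendrocyte precursor-like nuclei, 6 members passed the filter on low counts, and Rarres2 and Mgp did not. No gene of 4903 passed the test (0%), while 406 genes (8.28%) and 5 members had an unadjusted p under 0.05, DESeq2 called 0 genes and the block 65. With 1 library left out, 7 to 47 genes and 0 to 4 members passed, the most without vehicle 2. Cst3 came nearest, at 1105 and 1144 CPM with ImP, against 453 and 694 CPM with vehicle, a log2 ratio of 0.96 ± 0.182 (SE, adjusted p = 0.0558). For 7 of 8 members both ImP libraries were higher, as they were for 19.4% of genes; for Rarres2 and Mgp this rests on 0 to 6 UMIs per library. Cd9 was lower in both, where 18.1% of genes were, at 239 and 237 CPM with ImP, against 272 and 241 CPM with vehicle.

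Microglia-like nuclei gave the single call of a member outside neurons. Ptgds rose there, with 130 and 178 UMIs (702 and 1036.5 CPM) with ImP, against 22 and 67 UMIs (202 and 412 CPM) with vehicle, a log2 ratio of 1.47 ± 0.256 (SE, adjusted p = 0.00128), higher in 2 of 2 ImP libraries. It was 1 of 6 members that passed the low-count filter and 1 of 14 called genes among 4109 (0.341%). The call was lost with DESeq2 (adjusted p = 1.00), without vehicle 1 (log2 ratio 1.06, adjusted p = 0.890) and without ImP 4 (1.14, adjusted p = 0.153). Per nucleus, microglia-like nuclei held 0.798 and 1.21 Ptgds UMIs with ImP, against 0.268 and 0.504 UMIs with vehicle, where the neurons had 0.392 and 0.540 UMIs. Microglia-like nuclei of vehicle 1 thus lay below the neurons of that library. The part of free RNA in this difference was not tested. In this class 5 of 8 members were higher in both ImP libraries, where 20.1% of genes were, and none was lower, where 21.9% of genes were.

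Tanycyte-like nuclei, 23 and 73 with ImP, against 31 and 56 with vehicle, were the exception in direction. Of 6 members that passed the low-count filter none passed the test, nor did any gene of 1947 (0%), with 123 genes (6.32%) and 2 members at an unadjusted p under 0.05, 0 genes called by DESeq2 and 14 with the block. Without vehicle 2, 23 genes and 1 member passed, and without ImP 3, 13 genes and 0 members. Ptgds, Apod and Mgp were higher in both ImP libraries, where 14.8% of genes were, Mgp by 1 UMI in each ImP library, against 0 in each vehicle library. Apoe and Cd9 were lower, where 18.7% of genes were. Apoe, for which this was the leading class, had a log2 ratio of −0.47 ± 0.282 (SE, adjusted p = 0.858), and Cd9 of −0.29 ± 0.376 (SE, adjusted p = 0.988). Ptgds had one of 1.38 ± 0.340 (SE, adjusted p = 0.263). Most of these nuclei, 15 and 51 with ImP and 18 and 39 with vehicle, held only the 3 markers the gate asks for.

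**Figure D5:**
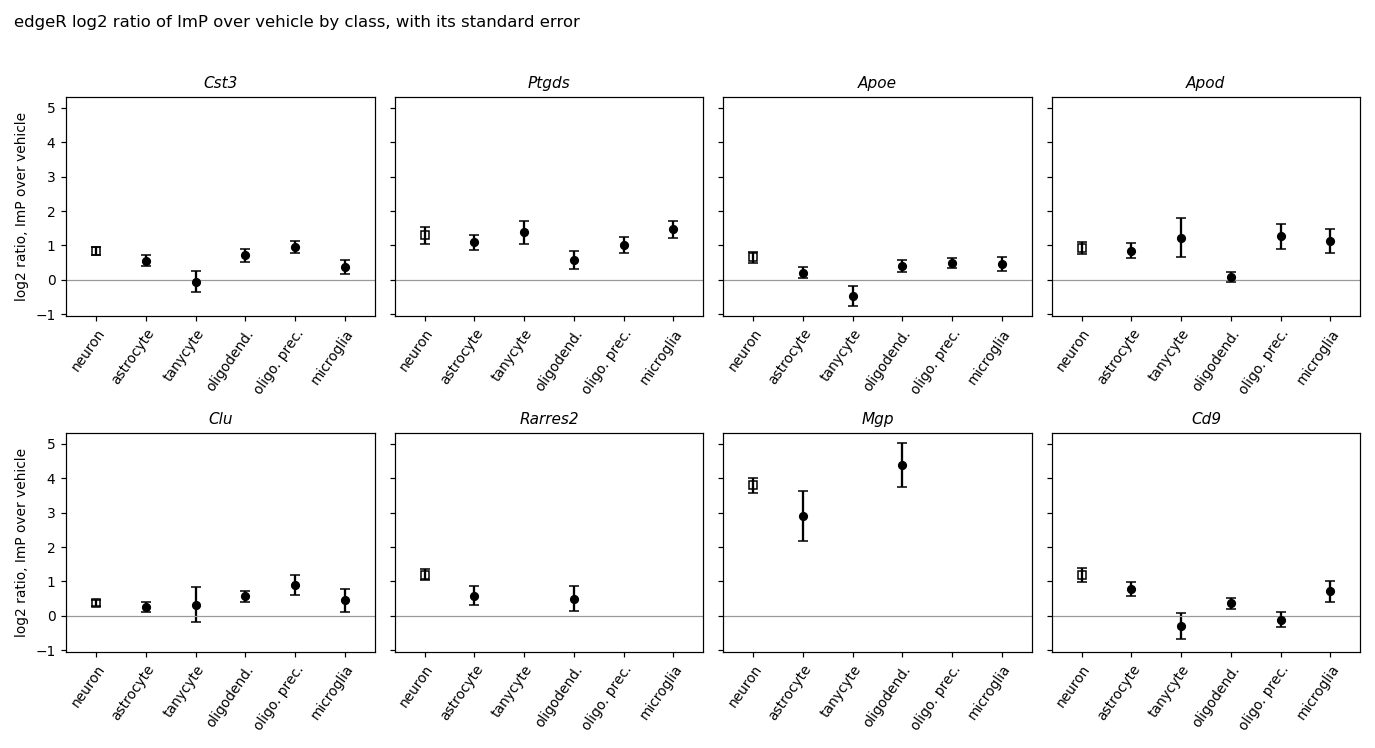
The edgeR log2 ratio of ImP over vehicle for each gene in neuron-like nuclei and in 5 non-neuronal classes; points are estimates and bars are 1 SE. Among the 5 non-neuronal classes, Ptgds in microglia-like nuclei, at 1.47, is the only value past an adjusted p of 0.05, and Apoe and Cd9 lie below 0 in tanycyte-like nuclei.

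Related genes were followed in 7 lists: other lipid-binding and apolipoprotein carriers, receptors of the members, cholesterol export and lipidation, cathepsins and other cystatins, prostaglandin D synthesis, vitamin K with Gla proteins and BMP ligands, and tetraspanins with their partners. By edgeR with Benjamini-Hochberg adjustment, no gene of any list passed in any of the 6 classes. The lists were chosen with earlier results of these data known. Their medians and counts in neurons are therefore a description, and no list was tested as a set. In neurons the median log2 ratio of all genes was −0.00. Of all genes, 17.8% were higher in both ImP libraries and 20.3% lower. The 21 measured other carriers had a median of 0.40, with 14 higher in both and 0 lower. The 11 cathepsins and cystatins had a median of 0.33, with 9 higher and 0 lower, and the 10 tetraspanins and partners one of 0.16, with 7 higher and 0 lower. The 14 receptors of the members lay at 0.04, with 2 higher and 3 lower, and the 13 cholesterol export genes at 0.05, with 2 higher and 2 lower. The 6 prostaglandin D genes lay at 0.18, with 3 higher and 0 lower, and the 10 vitamin K, Gla and BMP genes at 0.20, with 6 higher and 1 lower. At an unadjusted p under 0.05, where 1582 of the 20362 genes (7.77%) stood, were 11 carriers, 2 receptors, 0 cholesterol export genes, 7 cathepsins and cystatins, 0 prostaglandin D genes, 4 of the vitamin K list and 4 tetraspanins.

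The list genes named here were picked after their values were seen. Igfbp2, a secreted binding protein for insulin-like growth factors, was at 1.60 and 1.98 CPM in ImP neurons, against 0.536 and 0.588 CPM in vehicle neurons (edgeR adjusted p = 0.233). Npc2, a lysosomal and secreted cholesterol carrier, was at 26.4 and 28.2 CPM in ImP neurons, against 19.1 and 20.1 CPM in vehicle neurons (edgeR adjusted p = 0.233). Cd81, a tetraspanin that pairs with Cd9, was at 239.6 and 289.7 CPM in ImP neurons, against 165.5 and 193 CPM in vehicle neurons (edgeR adjusted p = 0.233). None of the 3 passed the test.

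The choice of members did not use gene length, and 5 of the 8 have short gene bodies. In the GENCODE M21 models of the earlier build GRCm38, the gene spans 3080 bases for Apoe, 3094 for Rarres2, 3338 for Ptgds, 3389 for Mgp and 3971 for Cst3. Clu spans 13065, Apod 18617 and Cd9 34526 bases. Of the 8, 7 lie below the median span of 21532 bases among the 19624 of 20362 neuron-tested genes (96.4%) with a model. The share of spliced RNA was not measured here.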

How the data were processed

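Per the labels' protocols, nuclei of snap-frozen hypothalamus were isolated with a kit, 10x Genomics 3′ reactions received some 10000 each, and the target depth was 40000 read pairs for a nucleus or more. The authors deposited whole-number UMI counts per gene and barcode, for which the submitters' processing notes name GRCm39, Cell Ranger 8.0.1 and Seurat 5.0.0. How intronic reads were handled, and with which annotation, is not given in the sources used here.

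Members and gene lists were chosen with earlier results of these data known. Barcodes with under 500 genes or over 5% mitochondrial UMIs were left out, keeping 14757 and 15725 ImP nuclei, against 10917 and 13023 vehicle nuclei. A nucleus joined a class with at least 3 of that class's markers and at most 2 of any other's. Astrocyte markers did not count against tanycyte or ependymal nuclei. Endothelial, mural and fibroblast nuclei needed at least 2 markers of their own class and fewer of any other. Pituitary nuclei needed 2 regulators or over 3% hormone UMIs. These last rules were set after a first look at the gate counts. Nuclei with markers of several classes were set aside and no doublet caller was run. Sums of counts in each class of a library were fitted in edgeR 4.0.16 (R 4.3.3; TMM, filterByExpr at a minimum count of 10, quasi-likelihood test), with a threshold of 0.05 after Benjamini-Hochberg adjustment; DESeq2 1.42.0 was an alternative. The fit was tested on simulated data. Classes needed 20 nuclei in every library. The rule named the 8 members, list genes past the threshold (none) and the 2 genes most like each member; 3 list genes outside it were named after their values were seen. Intervals and zero counts cover counting error only.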

Additional observations from a re-analysis of the deposited data

Results flagged for a closer look

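Apoe in tanycyte-like nuclei went against the other classes. Its ratio of ImP over vehicle mean CPM was 0.703 there, with both ImP libraries below both vehicle libraries, while both ImP libraries were above both vehicle libraries in neuron-, astrocyte-, oligodendrocyte-, oligodendrocyte precursor- and microglia-like nuclei. Cd9 did the same, at a ratio of 0.754 in tanycyte-like nuclei and 0.927 in oligodendrocyte precursor-like nuclei, against the opposite direction in neuron-, astrocyte-, oligodendrocyte- and microglia-like nuclei. Such orders were common: 18.7% of genes were lower in both ImP libraries in tanycyte-like and 18.1% in precursor-like nuclei. In the classes of the opposite direction, 17.8% to 23.9% of genes were higher in both. By edgeR no member passed in tanycyte- or precursor-like nuclei, and the tanycyte gate is the weakest. Cd9 in precursor-like nuclei changed sign with at most 1 marker of another class. The difference between classes was not tested.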

How the results depend on the processing

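No paired analysis was possible with the replicate numbers because the groups share none (3 and 4 with ImP, 1 and 2 with vehicle). The number in the library names, whose meaning the labels do not give, sets ImP 3 beside vehicle 1 and ImP 4 beside vehicle 2, and a fit with it as a block was made. In neurons the median log2 ratio of the 8 members was 1.06, between 0.77 and 1.33 with 1 library left out, and 0.76 in UMIs per nucleus. The number of all genes called there was 1 by edgeR, 292 by DESeq2, 615 with the block and 1 to 916 with 1 library left out. The median share expected from free RNA was 90.4%, and 75.2% with a profile of all barcodes, 114% with astrocyte and 125% with vascular and fibroblast calibration genes. It lay between 85.9% and 94.4% with 1 library left out.

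The counts of genes past the threshold changed with several settings, the block among them in each class. In neurons the count stayed at 1 in 7 other settings. In astrocyte-like nuclei 0 genes and 0 members passed, against 133 genes and 5 members with no filter on low counts, 294 and 5 with the block, 6 and 1 with at least 4 markers, 16 and 2 with at most 1 marker of another class, 3 and 1 with at least 1000 genes, and 0 to 376 genes and 0 to 5 members with 1 library left out. In oligodendrocyte-like nuclei 0 and 0 passed, against 11 genes with DESeq2, 149 and 3 with no filter, 583 and 5 with the block, 14 and 1 with at most 1 other marker, 5 genes with at least 1000 genes, and 0 to 293 genes and 0 to 2 members with 1 library left out. In oligodendrocyte precursor-like nuclei 0 and 0 passed, against 31 and 2 with no filter, 65 and 4 with the block, 4 genes with at least 4 markers, 29 and 2 with at least 1000 genes, and 7 to 47 genes and 0 to 4 members with 1 library left out. In tanycyte-like nuclei 0 and 0 passed, against 6 genes with no filter, 14 and 1 with the block, and 0 to 23 genes and 0 to 1 member with 1 library left out. In microglia-like nuclei 14 genes and 1 member passed, against 0 and 0 with DESeq2, 78 genes with the block, 28 and 2 with at least 4 markers, 3 genes with at most 1 other marker, 2 genes with at least 1000 genes, and 0 to 24 genes and 0 to 1 member with 1 library left out. The cause of these shifts was not tested. Leaving out the 10% of nuclei with the most UMIs in each library removed no astrocyte-, oligodendrocyte-, oligodendrocyte precursor- or microglia-like nucleus, so it tests nothing there.

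Single members outside neurons had 379 refitted log2 ratios over the alternative settings. Of these, 319 kept their direction and side of the threshold, 50 passed it newly, 3 no longer passed it and 7 changed sign. The 319 include refits without the 10% of nuclei with the most UMIs, which could change nothing where no nucleus was removed. With 1 library left out, Cst3 in tanycyte-like nuclei ran from −0.38 (without vehicle 2) to 0.35 (without vehicle 1) and was 0.078 without ImP 4. Clu there ran from −0.25 (without vehicle 2) to 0.93 (without vehicle 1) and was −0.034 without ImP 3. Ptgds in oligodendrocyte-like nuclei ran from −0.068 (without ImP 4) to 1.01 (without ImP 3) and Clu in microglia-like nuclei from −0.081 (without vehicle 2) to 0.93 (without vehicle 1). Cd9 in oligodendrocyte precursor-like nuclei was 0.32 with at most 1 other marker. The cause was not tested. A left-out library leaves 1 sample in its group, assumed to vary like the other group.

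A profile from barcodes under 300 genes was not run (0 and 1 such barcodes with ImP, 0 and 0 with vehicle), nor were the stricter gates in tanycyte-like nuclei, which fell under 20 nuclei. The per-nucleus scale, the profile without vascular markers and the left-out libraries for levels and free RNA were chosen after seeing the data. With 2 libraries a group, precision is set by the spread between libraries, and counts of Mgp and Rarres2 outside neurons are few.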

Other observations

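The pituitary-like nuclei of ImP 4 carried several of the genes at levels per nucleus above that library's neurons. Mgp was at 0.133 UMIs per pituitary-like nucleus (48 UMIs in 362 nuclei), against 0.0258 per neuron of ImP 4, and Apod at 0.312, against 0.196 per neuron. Ptgds was at 1.23 UMIs per pituitary-like nucleus, against 1.08 per neuron, and Cst3 at 2.30, against 2.19. ImP 3, with 3 such nuclei, had nearly the same Mgp level in neurons as ImP 4. Whether pituitary-like nuclei add to the Mgp level in neurons was not tested.

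Neurons made up 65.9% and 64.4% of kept nuclei in the ImP libraries, against 68.6% and 67.7% in the vehicle libraries. They held 49.5% and 57.4% of all Mgp UMIs of kept nuclei with ImP, against 64.0% and 56.8% with vehicle. Of all Ptgds UMIs, neurons held 54.0% and 47.3% with ImP, against 46.2% and 50.3% with vehicle, and oligodendrocyte-like nuclei 15.2% and 17.0% with ImP, against 27.8% and 23.2% with vehicle. Of all Apod UMIs, oligodendrocyte-like nuclei held 19.0% and 15.3% with ImP, against 32.2% and 22.8% with vehicle.

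Single neuron-gated nuclei were far above the rest: 1 nucleus of vehicle 2 held 155 Ptgds UMIs, and 1 nucleus of ImP 4 held 21 Mgp UMIs, where no vehicle neuron held more than 1.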
